A study of Mus musculus with 6 samples.

Results

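The genes described here are 10 parts of the MHC class I antigen presentation pathway, taken by their mouse gene symbols from a table of read counts for 57010 Ensembl genes. All 10 were found and all 10 passed the filter on low counts, among 16439 genes tested. RNA sequencing had been done on CD8+ T cells of C57BL/6 mice aged 8 weeks. Spleen and lymph nodes had given the naive cells by sorting, and antibodies to CD3 and CD28 had activated them over 24 hours. MondoAfl/fl mice gave the 3 WT libraries. That genotype names the floxed alleles and no Cre, although the sample titles of both groups hold the letters cre. The 3 KO libraries came from MondoAfl/flCD4cre mice, in which a Cre transgene under CD4 control, active from T cell development in the thymus onward, deletes MondoA (gene Mlxip), a glucose-responsive transcription factor. Floxed alleles, strain, sort and activation were thus common to both groups, and the design leaves effects of the Cre transgene, of deletion during T cell development and of MondoA loss in activated cells such that they cannot be told apart. The labels number the replicates without saying that each was a separate mouse, so part of the spread that p-values are set against may be technical.

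MHC class I molecules show short peptides from inside the cell to CD8 T cells. Peptides are cut by the proteasome, whose catalytic subunits can be exchanged for inducible ones in lymphocytes and under interferon, carried into the endoplasmic reticulum by the TAP transporter and loaded onto a heavy chain paired with beta-2 microglobulin. Lymphocytes express the pathway constitutively at a high level, and NLRC5, a transactivator that works through promoter-bound RFX, CREB/ATF and NF-Y factors, drives much of it in T cells.

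Promoter sequences of 8 of the 10 genes were found in RefSeq (GRCm38.p6), as windows from 250 bases before to 50 after each gene's start; Tap2 and Nlrc5 had no entry. Because members of this pathway are known to share promoter elements, 4 windows are shown in full, written 5′ to 3′ on the strand of the gene. They are H2-K1 (chr17:34000298-34000597, minus strand, the first of 2 annotated starts), H2-D1 (chr17:35262844-35263143, plus strand), B2m (chr2:122147437-122147736, plus strand) and Psmb8 (chr17:34197945-34198244, plus strand). Capitals mark matches, on either strand, to an NF-kB type motif (GGGATTCCC), the X2 core bound by CREB/ATF factors (TGACGC), the Y box bound by NF-Y (ATTGG, or CCAAT on the other strand), the core of an interferon response element (GAAANNGAAA) and a gamma-activated site (TTCNNNGAA).
H2-K1: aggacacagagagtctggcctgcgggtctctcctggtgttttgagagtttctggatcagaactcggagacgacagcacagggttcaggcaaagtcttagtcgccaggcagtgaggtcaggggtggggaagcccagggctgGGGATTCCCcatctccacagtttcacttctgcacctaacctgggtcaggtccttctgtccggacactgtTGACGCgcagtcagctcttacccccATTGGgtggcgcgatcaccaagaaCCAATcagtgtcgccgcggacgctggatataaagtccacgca
H2-D1: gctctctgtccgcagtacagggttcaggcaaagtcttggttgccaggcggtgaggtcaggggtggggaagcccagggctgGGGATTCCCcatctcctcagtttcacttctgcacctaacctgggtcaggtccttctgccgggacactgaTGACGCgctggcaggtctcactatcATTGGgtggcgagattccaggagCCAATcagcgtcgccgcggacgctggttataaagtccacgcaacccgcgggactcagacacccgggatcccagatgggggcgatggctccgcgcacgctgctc
B2m: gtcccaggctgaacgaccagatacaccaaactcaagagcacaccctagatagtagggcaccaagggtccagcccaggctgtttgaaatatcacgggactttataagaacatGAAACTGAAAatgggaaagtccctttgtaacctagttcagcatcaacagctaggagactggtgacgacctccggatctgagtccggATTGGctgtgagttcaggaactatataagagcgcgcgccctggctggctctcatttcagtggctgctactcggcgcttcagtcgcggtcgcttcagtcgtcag
Psmb8: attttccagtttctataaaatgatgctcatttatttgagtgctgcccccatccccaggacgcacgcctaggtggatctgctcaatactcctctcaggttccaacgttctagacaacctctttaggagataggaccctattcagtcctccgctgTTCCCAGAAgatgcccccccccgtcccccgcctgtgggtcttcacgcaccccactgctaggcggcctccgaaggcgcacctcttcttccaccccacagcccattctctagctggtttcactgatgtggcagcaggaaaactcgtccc

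The 2 heavy chain windows carried the same order of motifs. In both the X2 core began 69 bases after the NF-kB type motif and the first Y box began 94 bases after it, and the next Y box began 118 bases after it in H2-K1 and 117 in H2-D1. In a global alignment of the windows 239 bases of each were paired, of which 214 (89.5%) were identical, and the other 122 alignment columns were gaps. H2-K1 and H2-D1 were the only 2 of the 8 genes with the NF-kB type motif, which stood in 0.353% of 32851 mouse promoter windows of the same length, and the only 2 with the X2 core, present in 7.40% of windows. A Y box stood in 6 of the 8 (H2-K1, H2-D1, B2m, Tap1, Tapbp and Psmb9) and in 37.4% of all windows. The interferon response core was matched in B2m alone of the 8 (3.44% of windows) and the gamma-activated site in Psmb8 alone (8.30% of windows). Psmb10 alone held CACGTG, the core of the E-boxes that MondoA binds with its partner Mlx (7.15% of windows). Tap1 and Psmb9 are transcribed away from each other, and their windows overlap by 275 bases, so the Y box in both is 1 sequence. These are exact letter matches only, so variants of an element that differ by a letter were not counted. The B2m, Tap1 and Psmb9 windows each hold a stretch that differs from the X2 core by its last letter alone. A window without a match may therefore still hold an element of that kind. The sequencing did not measure binding.

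The library totals ran from 26150420 to 34447230 counts, and the least covered of the 10 genes in any library, Psmb10, still had 3166 reads. Mlxip and 2 known targets of MondoA checked the labels, in CPM (reads relative to the library total, scaled by the TMM method). Txnip, an arrestin-family gene, fell from 214 to 232 CPM in WT to 73.8 to 80.4 CPM in KO, and its relative Arrdc4 from 29.0 to 36.9 CPM in WT to 2.87 to 4.28 CPM in KO, with edgeR quasi-likelihood adjusted p of 3.85e-05 and 4.07e-05. Mlxip itself had a log2 fold change of -0.58 (95% interval -0.79 to -0.38), with all KO libraries below all WT libraries, and its edgeR quasi-likelihood adjusted p of 0.125 missed the threshold. The CD8 T cell markers Cd8a, Cd8b1, Cd3d, Cd3e, Cd3g, Trac and Lck summed to 2005 to 2462 CPM in WT and 2341 to 2695 CPM in KO. All 7 had a log2 fold change above 0 with a median of 0.19, and none passed by edgeR. Of all 16439 genes tested 7758 were above 0 and 8681 below. Transcripts that mark B cells summed to 58.7 to 101 CPM over 7 genes in WT and 30.5 to 71.2 CPM in KO, lowest in KO 3. The 10 myeloid and dendritic markers, of which 7 were tested, summed to 25.8 to 46.9 CPM in WT and 20.9 to 33.7 CPM in KO, and the 4 CD4 T cell markers to 13.7 to 26.2 CPM and 9.52 to 15.5 CPM. The 5 NK markers summed to 93.5 to 107 CPM in WT and 100 to 115 CPM in KO, mostly through Eomes, which activated CD8 cells also make, with Ncr1 and Klra8 at or near 0 throughout. The other 2 NK markers tested lay lower in every KO library than in any WT library, with a fold change of 0.55 (0.40 to 0.77) for Klrk1 and 0.60 (0.40 to 0.89) for Klrb1c, neither passing over all genes. Eomes went the other way, with a fold change of 1.32 (1.10 to 1.58), and did not pass over all genes either. The median log2 fold change of the 3 tested was -0.75. Which cells made these transcripts, the CD8 cells or others, was not tested. The 5 erythroid and stromal markers summed to 88.9 to 97.3 CPM and 94.3 to 121 CPM. Nearly all of this was Pecam1, at 84.8 to 95.7 CPM in WT and 92.4 to 116 CPM in KO. Hba-a1, Hbb-bs and Col1a1 each lay between 0.435 and 2.54 CPM in every library. The log2 fold change was below 0 for 7 of 7 B cell, 6 of 7 tested myeloid and 4 of 4 CD4 T cell markers, and none of them passed in either direction by edgeR. Such cells also make class I molecules, and the part of these marker differences, CD8 markers included, in the values below was not tested. In these bulk samples fewer cells of a type and less RNA per cell cannot be told apart. Xist was high and the Y-linked genes were near 0 in WT 3 and KO 2, and the reverse held in the other 4 libraries, so each group held 1 library of female and 2 of male type and thus came from at least 2 mice.

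The pathway was strongly expressed in every library: its 10 genes together took 1.45% to 1.5% of all counts in WT and 1.36% to 1.55% in KO. The level of each gene per kilobase of its principal transcript (CPM per kilobase, RPKM) fell into tiers. B2m, the light chain of every class I molecule, was at the top with a median of 3962 RPKM over the 6 libraries, followed by the heavy chains H2-K1 at 3170 and H2-D1 at 1470 RPKM, and the ranges of these 3 genes did not overlap. Tapbp (tapasin, which holds the empty heavy chain at the transporter) at 249 RPKM and Tap1 at 237 RPKM came next, with overlapping ranges. Nlrc5 at 118, the inducible proteasome subunits Psmb8 at 111, Psmb9 at 106 and Psmb10 at 102 RPKM followed, each overlapping its neighbour. Tap2 was lowest at 72.3 RPKM, below its partner Tap1 in all 6 libraries. Reckoned over all annotated exons, which include retained-intron models, the first 6 kept their places while Tap2 came to lie above Psmb8 and Psmb9, so the order of the lower genes rests on the length used. A single gene varied little between libraries, the highest library standing 1.17-fold (H2-D1) to 1.44-fold (Tapbp) above the lowest.

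The question put by KO against WT is whether the steady-state transcript levels of this pathway differed without MondoA in activated CD8 cells. No member passed the test. The 10 log2 fold changes lay between 0.0005 (H2-K1) and 0.21 (Tapbp), all above 0 under TMM scaling but 7 above and 3 below 0 with library size alone, and had a median of 0.10 against -0.016 over all 16439 genes tested. Of all genes tested 7758 were above 0 under TMM scaling and 8681 below. By edgeR's quasi-likelihood test with Benjamini-Hochberg adjustment over all genes, 0 of the 10 passed at 0.05 in either direction, where 0% of all genes passed as higher in KO and 0.0122% (Txnip and Arrdc4) as lower. At an unadjusted p under 0.05 the count was also 0 of 10, against 5.05% of all genes higher and 5.77% lower. In 0 of the 10 did all KO libraries lie above all WT libraries, which 7.80% of all genes did, and in 0 did all lie below, which 8.65% did. DESeq2 and limma-voom gave 0 of 10 at an adjusted 0.05 as well, against 0.529% and 0% of all genes called higher, and at an unadjusted p under 0.05 DESeq2 had 1 of 10, Psmb8, against 5.61% of all genes higher. The smallest adjusted p among the 10 was 0.467 in edgeR and ran from 0.246 to 0.855 over the alternatives. A p that misses the threshold does not show equal levels, and the 95% intervals say how large a difference these data allow: over the 10 genes they reached from 0.87-fold (Psmb9) to 1.37-fold (Tapbp) of the WT level, taken gene by gene.

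**Figure D1:**
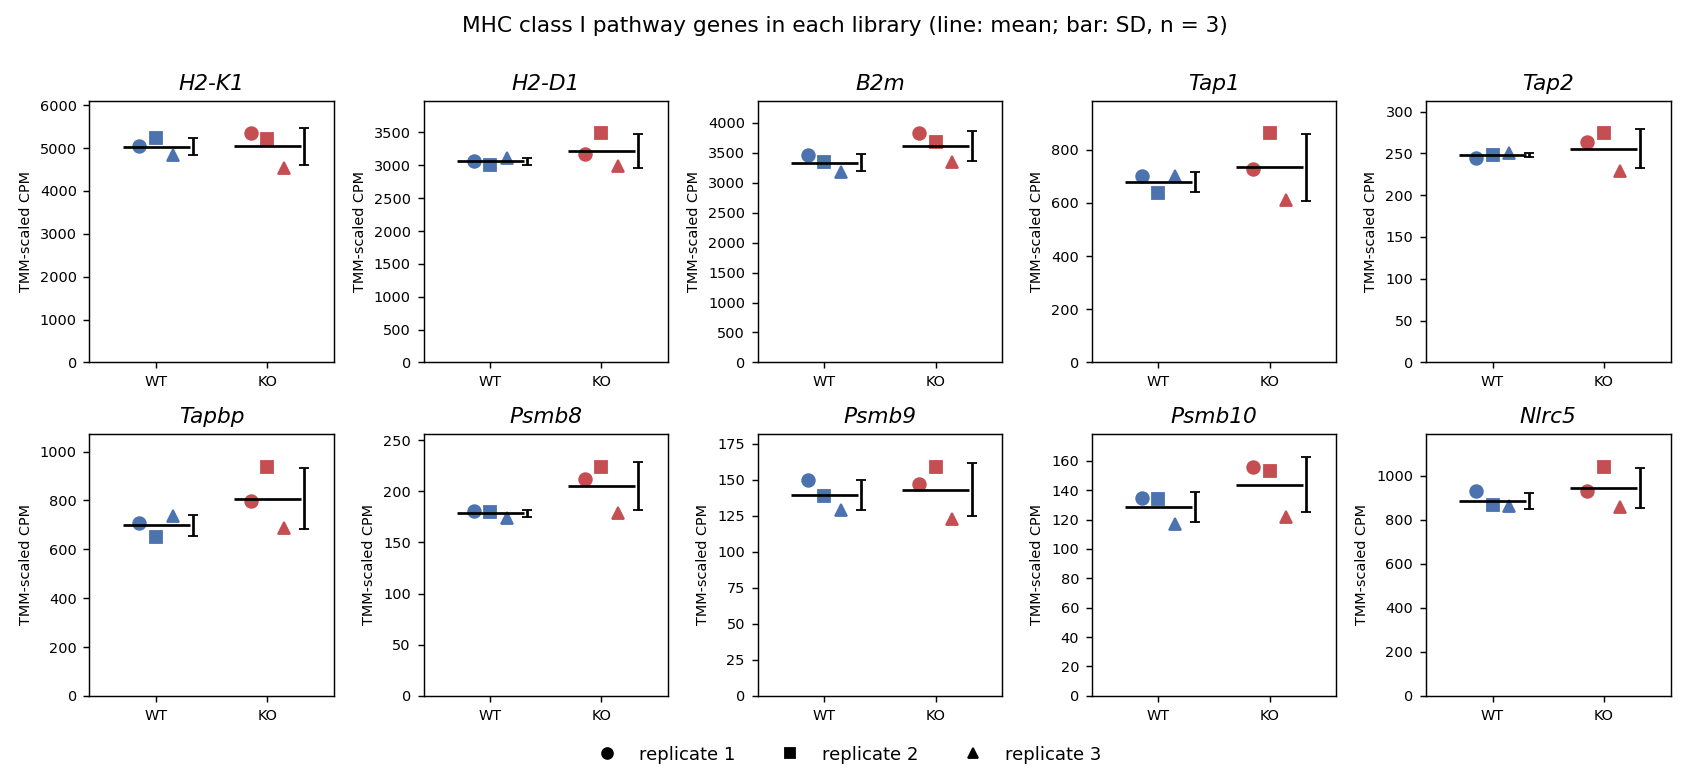
Level of each of the 10 genes in TMM-scaled CPM (y axis, from 0) in the WT and KO libraries, with replicate numbers as symbols, the mean as a line and the SD of 3 libraries as a bar. The KO symbols straddle or overlap the WT symbols in every panel, and KO 3 (red triangle) is the lowest KO library in all 10.

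The heavy chains present the peptide and are the most polymorphic part of the complex. The WT libraries held 5043, 5229 and 4835 CPM of H2-K1 and the KO libraries 5346, 5222 and 4545 CPM, each in the order of replicates 1 to 3. The groups overlapped, with KO 1 highest and KO 3 lowest, and the WT mean of 5036 ± 197 CPM (SD, n = 3) stood beside a KO mean of 5037 ± 431 CPM (SD, n = 3). Its fold change was 1.00 with a 95% interval of 0.89 to 1.12. H2-D1 was at 3071, 3004 and 3107 CPM in WT and 3180, 3488 and 2984 CPM in KO, a fold change of 1.05 (0.94 to 1.17), with KO 3 below and KO 1 and KO 2 above the WT libraries. Some class I genes share stretches of sequence. Of the 50-base stretches of H2-K1 transcripts 9.6%, and of those of H2-D1 12.8%, also stand in another gene, most often H2-Q10 and H2-Q1. How reads that fit several genes were counted is not given in the sources used here, so the split between these genes is uncertain to that extent.

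B2m, the invariant light chain without which heavy chains do not reach the surface, was at 3461, 3355 and 3182 CPM in WT and 3827, 3683 and 3343 CPM in KO. Only KO 3 fell within the WT range. The fold change was 1.09 (0.97 to 1.21), and no 50-base stretch of B2m is shared with another gene.

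The TAP transporter is a dimer of TAP1 and TAP2 that pumps peptides into the endoplasmic reticulum. Tap1 was at 702, 637 and 701 CPM in WT and 727, 862 and 611 CPM in KO, so the KO libraries held both the highest and the lowest value. Tap2 was very even in WT, at 245, 248 and 250 CPM, and spread from 264 and 274 CPM in KO 1 and KO 2 to 229 CPM in KO 3. The fold changes were 1.08 (0.91 to 1.29) for Tap1 and 1.03 (0.91 to 1.18) for Tap2. Tapbp was at 708, 652 and 737 CPM in WT and 796, 938 and 687 CPM in KO, where KO 1 and KO 2 lay above WT and KO 3 inside its range. Tapbp had the largest difference of the 10, a fold change of 1.15 with an interval of 0.98 to 1.37 (edgeR quasi-likelihood unadjusted p = 0.0853). The antisense gene Gm19412 overlaps 24.9% of the annotated Tapbp exons, and other genes on the opposite strand overlap 14.1% of the exons of Tap2 (Gm15821) and 14.7% of those of Psmb8 (Gm20496). The strand setting of the counting is not given in the sources used here, so reads of these partners cannot be told apart from those of the members.

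The inducible proteasome subunits Psmb8 (LMP7), Psmb9 (LMP2) and Psmb10 (MECL-1) take the catalytic places of Psmb5, Psmb6 and Psmb7 and favour peptides that fit class I grooves. Psmb8 was at 181, 180 and 174 CPM in WT and 212, 224 and 179 CPM in KO, with KO 1 and KO 2 above WT and KO 3 within its range. Its fold change of 1.15 had an interval of 1.00 to 1.33 and the smallest unadjusted p of the 10, 0.0552 by the edgeR quasi-likelihood test. Psmb10 was at 135, 134 and 117 CPM in WT and 156, 153 and 122 CPM in KO, a fold change of 1.12 (0.95 to 1.32). Psmb9 was at 150, 139 and 129 CPM in WT and 147, 159 and 123 CPM in KO, with wholly overlapping groups and a fold change of 1.03 (0.87 to 1.21).

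The constitutive partners stood a little higher in KO as well, without passing over all genes. Psmb7 had a fold change of 1.23 (1.01 to 1.49), Psmb6 of 1.18 (1.00 to 1.39) and Psmb5 of 1.09 (0.90 to 1.32), with 2 of the 3 under an unadjusted p of 0.05 (5.05% of all genes were so and higher). The balance of inducible to constitutive subunit was therefore taken as the ratio of counts within each library, which needs no scaling between libraries. Per kilobase of principal transcript, Psmb8 exceeded Psmb5 by 2.37 to 2.53 times in WT and 2.21 to 3.07 times in KO. The ratio for Psmb10 over Psmb7 was 1.72 to 1.93 in WT and 1.54 to 2.00 in KO, and for Psmb9 over Psmb6 it was 0.843 to 1.10 in WT and 0.729 to 0.953 in KO. Per kilobase of all annotated exons the 3 ratios ran over the 6 libraries from 1.06 to 1.48, 3.49 to 4.53 and 0.632 to 0.949, so their absolute size rests on the length used, while the comparison of KO with WT does not. On the log2 scale the KO minus WT difference was 0.083 for Psmb8 over Psmb5, -0.20 for Psmb9 over Psmb6 and -0.14 for Psmb10 over Psmb7. Exact two-sided permutation tests over the 6 libraries gave p = 0.8, 0.3 and 0.4 (0.8, 0.6 and 0.6 after Benjamini-Hochberg adjustment over the 3), where 3 against 3 cannot go below 0.1. At this size the test cannot pass 0.05, so it shows neither a difference nor its absence. For comparison, the SD over WT libraries was 0.052, 0.20 and 0.09 and over KO libraries 0.24, 0.21 and 0.22. In each of the 3 ratios KO 2 was the highest KO library and KO 1 was the lowest or level with the lowest, and without KO 2 the Psmb8 over Psmb5 difference was -0.046 in place of 0.083.

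**Figure D2:**
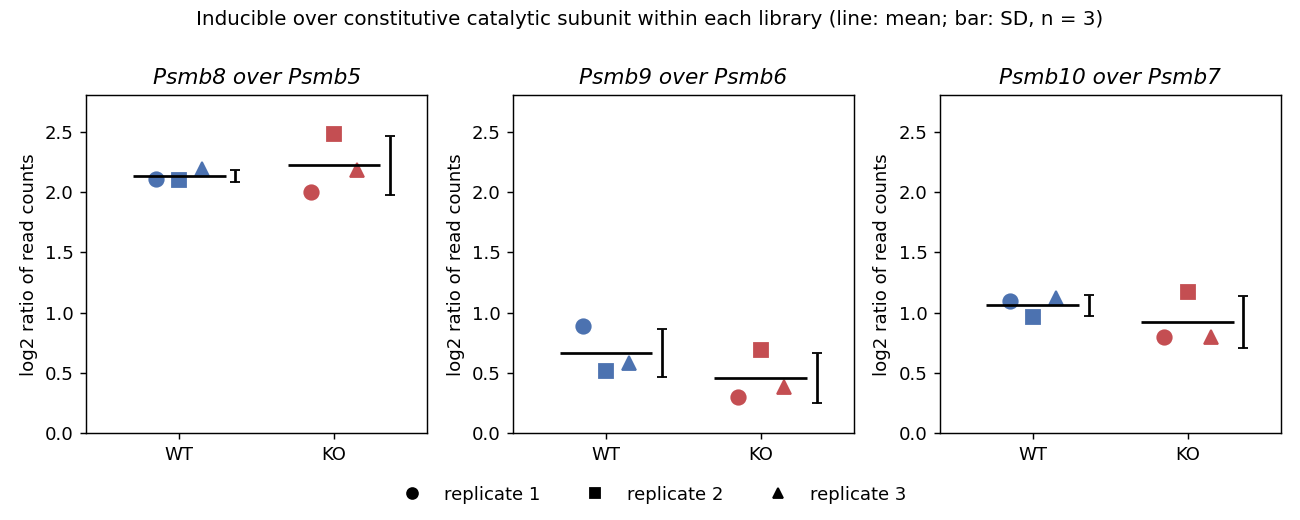
Log2 ratio of read counts (y axis) of each inducible subunit to the constitutive subunit it replaces, in each library, not corrected for transcript length, with the mean as a line and the SD of 3 libraries as a bar. WT and KO overlap in all 3 panels and KO 2 (red square) is the highest KO library in each.

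Nlrc5, the transactivator of the class I genes, did not pass the test. It was at 928, 864 and 861 CPM in WT and 931, 1040 and 857 CPM in KO. KO 1 was close to WT 1, KO 3 lay just under the WT range and KO 2 above it, and the fold change was 1.07 (0.94 to 1.21). The factors it works with and the wider regulators of the pathway were a list of 15 genes, of which 0 passed over all genes in either direction, while at an unadjusted p under 0.05 there were 3 higher (5.05% of all genes) and 2 lower (5.77%). Nfyc, a subunit of the Y box factor NF-Y, was at 57.1, 57.1 and 57.7 CPM in WT and 71.7, 68.9 and 69.0 CPM in KO, with a fold change of 1.22 (1.09 to 1.37) and all KO libraries above all WT libraries. Its edgeR quasi-likelihood adjusted p was 0.335. The other NF-Y subunits lay lower in KO, Nfyb with a fold change of 0.82 (0.70 to 0.97) and Nfya of 0.96 (0.86 to 1.08). Rfx5, a subunit of the RFX complex, had 0.78 (0.62 to 0.96), with all KO libraries below all WT libraries, and none of these 3 passed over all genes. The RFX subunit Rfxap went the other way, at 1.15 (0.98 to 1.35), with all KO libraries above all WT libraries. Rfxank had 0.94 (0.79 to 1.13). In 5 of the 15 genes all KO libraries lay above all WT libraries (7.80% of all genes), and in 2 all lay below (8.65%). Stat2 and Irf9, which act in type I interferon signalling, had fold changes of 1.45 (1.11 to 1.90) and 1.20 (1.05 to 1.37), with adjusted p of 0.373 each by the same edgeR test. Stat2 was at 631 and 746 CPM in KO 1 and KO 2 but 406 CPM in KO 3, against 394 to 432 CPM in WT.

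Within the KO group the members differed between libraries in the same direction. The median deviation of the 10 genes from their own means over the 6 libraries, in log2 CPM, was -0.0051, -0.055 and -0.069 in WT 1 to 3. It was 0.080 in KO 1, 0.18 in KO 2 and -0.13 in KO 3. All 10 members lay above their mean in KO 1 and in KO 2, and all 10 lay below it in KO 3. The shares of all genes that did so were not counted. KO 2 was the highest library for 7 members and KO 1 for the other 3, whereas over all genes tested KO 2 was highest for 14.4% and KO 1 for 21.4%. KO 3 was the lowest library for 6 members (13.5% of all genes), WT 3 for 3 (20.7%) and WT 2 for 1 (13%). The 2 most different libraries thus carried the same genotype label.

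Interferon-stimulated genes were also high in KO 1 and KO 2, while their median in KO 3 was level with WT 3. In a panel of 10 interferon-stimulated genes, listed with earlier results on these libraries known, the median deviation was 0.78 and 0.61 in KO 1 and KO 2 and -0.46 in KO 3, against -0.36, -0.14 and -0.46 in WT 1 to 3. The median log2 fold change of the panel was 0.72, 0 of 10 passed over all genes, and 8 of 10 were higher at an unadjusted p under 0.05 by the edgeR quasi-likelihood test, against 5.05% of all genes. After adjustment 9 of the 10 passed when low counts were not filtered, a setting in which 245 of 29109 genes were called higher. With DESeq2 2 of the 10 passed, against 0.529% of all genes called higher. Rsad2 (viperin, an antiviral enzyme) was at 45.4 to 62.7 CPM in WT and at 132, 149 and 51.6 CPM in KO 1 to 3, and Ifi27l2a was at 143 to 186 CPM in WT and 286, 241 and 183 CPM in KO. Oasl2, of the oligoadenylate synthetase family, was at 559 to 568 CPM in WT and 655 to 973 CPM in KO, with all KO libraries above WT. Gbp2, the panel's most abundant gene, differed little, with a fold change of 1.02 (0.84 to 1.24). It was at 1572 to 1717 CPM in WT and 1794, 1934 and 1297 CPM in KO 1 to 3. The difference between this panel and the class I members was not tested. Ifnb1, a type I interferon gene, had no read in any library, which allows up to 0.115 CPM in the shallowest. Ifng, whose product is a strong inducer of class I genes, was at 24.8, 56.7 and 14.9 CPM in WT and 81.1, 50.4 and 16.9 CPM in KO. It was highest in KO 1 and lowest in WT 3, and its part in the members' values was not tested. Of 10 interferon ligand, receptor and kinase genes 8 were tested and 0 passed in either direction, with 5 above 0, 3 below and a median log2 fold change of 0.025. The 3 below 0 were as follows. Tyk2, a kinase of the type I receptor, had a fold change of 0.81 (0.67 to 0.96), the receptor chain Ifnar1 of 0.90 (0.79 to 1.03) and the interferon-gamma receptor chain Ifngr1 of 0.91 (0.78 to 1.08).

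**Figure D3:**
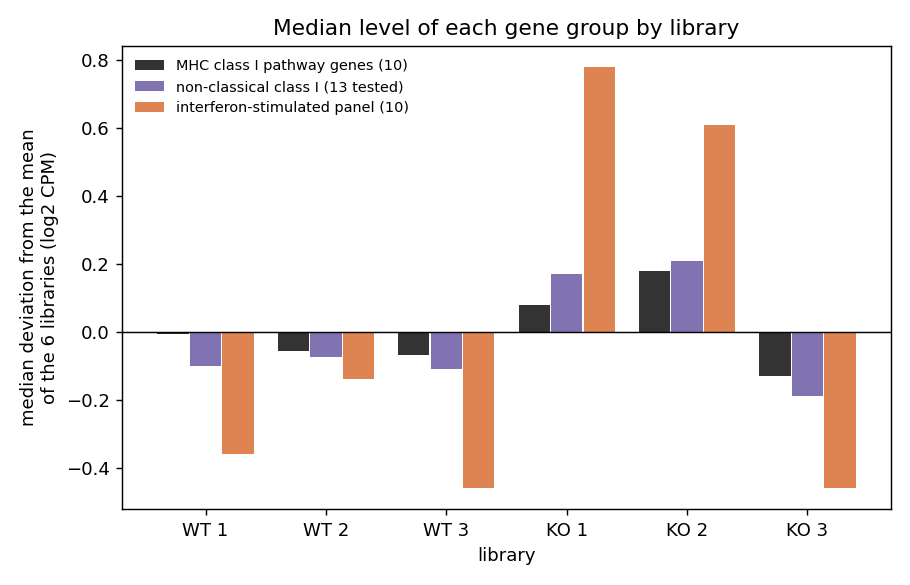
Median deviation of each gene group from its genes' means over the 6 libraries (y axis, log2 CPM) in each library, for the 10 MHC class I pathway genes, the 13 tested non-classical class I genes and the 10 genes of the interferon-stimulated panel. All 3 groups are above 0 in KO 1 and KO 2 and below 0 in KO 3, and the class I bars (up to 0.18) are shorter than those of the panel (up to 0.78).

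Because KO 3 and KO 2 set the outer values, the comparison was repeated without each. Both were thus picked by the members' own values. KO 3 was the lowest KO library for all 10, so its removal had to raise their KO means. The counts without it are description only. Without KO 3 the median log2 fold change of the 10 rose to 0.17 and 5 of them (B2m, Tap1, Tapbp, Psmb8 and Psmb10) had an unadjusted p under 0.05 and were higher in KO, against 5.73% of all genes, but 0 of 10 passed after adjustment, against 0.384% of all genes. The log2 fold changes were then 0.31 for Tapbp, 0.29 for Psmb8 and 0.27 for Psmb10, while 9 of the 10 panel genes passed in that setting. KO 3 was the lowest KO library for every panel gene too, so the panel's count is likewise description only. Without KO 2 the median was 0.015, and H2-K1, Tap1, Tap2 and Psmb9 stood below 0, at -0.024, -0.020, -0.0030 and -0.043. Split by the sex type of the libraries, the median difference in log2 CPM was 0.0099 between 2 male KO and 2 male WT libraries and 0.29 between the 1 female KO library (KO 2) and the 1 female WT library (WT 3), for which there is no replicate. With a term for sex in the edgeR fit the median was 0.094 and 0 of 10 passed.

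The non-classical class I genes, which encode molecules with narrower peptide, lipid or metabolite ligands, did not pass either. Of 14 listed, 13 were tested, 0 passed in either direction, 11 were above 0 and 2 below, and the median log2 fold change was 0.17. Of all 16439 genes tested 7758 were above 0. H2-T22, whose product is a ligand of gamma delta T cell receptors, was at 172, 197 and 193 CPM in WT and 295, 278 and 176 CPM in KO. KO 1 and KO 2 lay above WT and KO 3 within its range. The fold change was 1.33 (1.03 to 1.72), with an adjusted p of 0.418 by the edgeR quasi-likelihood test. H2-T22 was the 1 gene of the list that passed without KO 3 and without a filter on low counts. In these settings 0.384% of all genes and 245 of 29109 genes were called higher. KO 3 was the lowest KO library for H2-T22, so its passing without KO 3 is description only. H2-Q7, a Qa-2 gene, had a fold change of 1.19 (0.98 to 1.44) and H2-T24 of 1.20 (0.95 to 1.52). H2-Q10 and H2-Q1 share stretches with the heavy chains, as given above. Sharing among the genes of this list was not measured. Their counts may carry the uncertainty given for the heavy chains, to an extent that is not known.

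**Figure D4:**
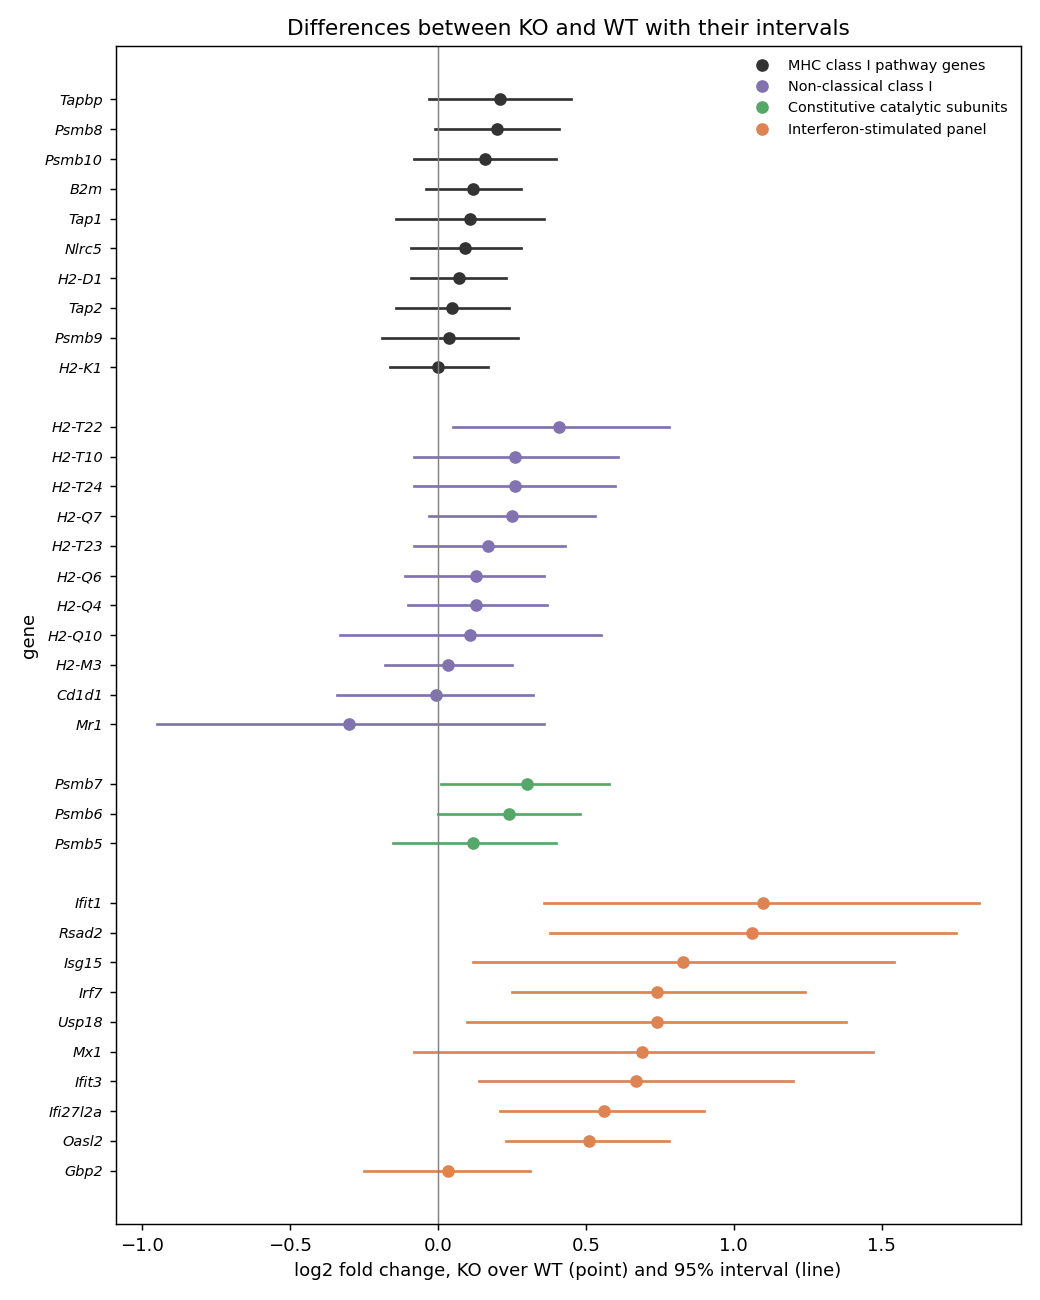
Log2 fold change of KO over WT (x axis, points) with its 95% interval (lines) for the 10 MHC class I pathway genes, the non-classical class I genes, the constitutive catalytic subunits and the interferon-stimulated panel; H2-Q1 and H2-T3, at very low counts, are left out for their wide intervals. The intervals of all 10 pathway genes include 0, and those of Ifit1 and Rsad2 begin at 0.36 and 0.38.

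No gene of peptide supply, trimming or loading passed. Of 10 loading and trimming genes 0 passed in either direction, all 10 were above 0 (7758 of 16439 over all genes), and the median log2 fold change was 0.16. Sec61a1, a channel subunit of the endoplasmic reticulum membrane, was at 178 to 190 CPM in WT and 196 to 220 CPM in KO, a fold change of 1.14 (1.01 to 1.29) with all KO libraries above all WT libraries. Calr (calreticulin, a chaperone of the loading complex) had a fold change of 1.29 (1.02 to 1.63), with 813 CPM in KO 1 against 545 to 611 CPM in the other KO libraries and 452 to 610 CPM in WT. Tapbpl, the tapasin relative that edits peptides, had 1.14 (1.00 to 1.30). Of 10 genes of peptide supply 0 passed in either direction, 9 were above 0 and 1 below, with a median of 0.11. The cytosolic peptidase gene Thop1 had a fold change of 1.47 (1.07 to 2.04) at 7.85 to 12.2 CPM in WT and 12.2 to 19.4 CPM in KO, the proteasome activator Psme1 of 1.13 (0.95 to 1.34) and the peptidase Tpp2 of 1.08 (0.95 to 1.22).

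MHC class II genes, which antigen-presenting cells use and mouse T cells largely lack, went the other way in value. Of 10 class II pathway genes 0 passed in either direction, 8 were below 0 (8681 of 16439 over all genes), and the median log2 fold change was -0.53. H2-Ab1 was at 55.1, 27.5 and 61.5 CPM in WT and 24.5, 34.6 and 31.3 CPM in KO, H2-Aa at 69.7, 28.8 and 76.2 CPM in WT and 24.4, 43.3 and 39.3 CPM in KO, and H2-DMb1 at 1.99 to 3.41 CPM in WT and 0.936 to 1.89 CPM in KO. WT 2 lay with KO for the first pair. The B cell markers were likewise lower in KO on average, all 7 below 0 with a median of -0.53 and 0 passing in either direction. So were the myeloid and dendritic markers, with 6 of 7 tested below 0, a median of -0.64 and 0 passing. In order of replicates, class II genes summed to 433, 237 and 476 CPM in WT and 232, 320 and 271 CPM in KO. Myeloid and dendritic markers summed to 40.8, 25.8 and 46.9 CPM in WT and 20.9, 33.7 and 31.5 CPM in KO. B cell markers summed to 77.5, 58.7 and 101 CPM in WT and 71.2, 59.6 and 30.5 CPM in KO. The part of either kind of cell in the class II values was not tested.

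A total of 9232 named genes outside the pathway averaged 5 CPM or more, and the 5 whose centred log2 CPM over the 6 libraries lay nearest to the mean profile of the members were Txndc16, Msh3, Ctss, Cdk2ap2 and Wars. Their root mean square differences from the profile were 0.026 to 0.0379 log2 units over 6 libraries, where the profile itself spans 0.307. Ctss encodes cathepsin S, a protease of the class II pathway, and was at 190, 187 and 174 CPM in WT and 208, 216 and 183 CPM in KO. Wars encodes the cytosolic tryptophanyl-tRNA synthetase, and was at 473, 474 and 470 CPM in WT and 496, 572 and 443 CPM in KO. Txndc16 (thioredoxin domain protein), Msh3 (DNA mismatch repair) and Cdk2ap2 (a CDK2-associated protein) had log2 fold changes of 0.15, 0.071 and 0.17, and 0 of these 5 genes passed over all genes.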

How the data were processed

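The authors deposited 1 table of raw read counts per Ensembl gene for 3 WT and 3 KO samples. The submitters' processing notes name GRCm39, HISAT2, Subread and featureCounts; the sources used here do not give their versions, the annotation, the strand setting or the rule for reads that fit several genes. Of 57010 gene identifiers 52029 took a symbol from GENCODE M21 (GRCm38), which also gave transcript lengths (longest APPRIS principal transcript), overlaps and shared 50-base stretches; promoter windows came from RefSeq. Since these builds differ from the counts' build, coordinates are given for the promoter windows only.

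Groups follow the genotype in the labels' titles. R 4.3.3 with edgeR 4.0.16 (filterByExpr with minimum count 10 and minimum total 15, TMM, glmQLFit and glmQLFTest, two-sided, no covariate) was fitted to all 16439 genes kept, with Benjamini-Hochberg adjustment over all of them and a threshold of 0.05. Intervals are 95% intervals from the fit's standard errors and its t distribution. DESeq2 1.42.0, limma 3.58.1 (voom), other scalings and filters, the replicate number as a block and leaving out each library were alternatives; the sex term was added after the data were seen. Log2 CPM used a prior count of 2 and count ratios 0.5. A count of 0 allows 3 counts, for counting error only. The procedure was tested on simulated counts. Within groups no pair of libraries matched within sampling noise (mean chi-square per gene 16.0 to 40.4).

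The members, gene lists and motifs were chosen with earlier results of these data known. Named genes are the 10 members, Mlxip with its targets Txnip and Arrdc4, and up to 3 genes per pathway list by lowest p. Ifng, Psmb5 to Psmb7 and the 5 genes nearest the members' profile were named as well. Ifnb1, Nfya, Nfyb, Rfx5, Rfxap, Rfxank, Ifit1, Gbp2 and single cell type markers were named after their values were seen.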

Additional observations from a re-analysis of the deposited data

How the results depend on the processing

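In all 14 alternatives 0 of the 10 genes passed after adjustment. The number of genes called over the whole table was 2 in the main fit, 511 when low counts were not filtered, 153 with DESeq2, 6 with the sex term (chosen after seeing the data) and from 2 to 80 (without KO 3) with 1 library left out; the causes were not tested. The median log2 fold change of the 10 ran from 0.015 (without KO 2) to 0.17 (without KO 3), and was 0.032 with library size as the only scaling, where the median of all genes moved from -0.016 to -0.083. Of 140 values of single members under alternatives 127 kept their direction and 13 did not, in H2-K1, Tap1, Tap2 and Psmb9. H2-K1 was -0.067 with library size alone, -0.021 among genes averaging 5 CPM or more, -0.0024 with the replicate block and -0.0031 with limma-voom, and leaving out 1 library gave -0.043 to 0.072. With library size alone Tap2 was -0.021 and Psmb9 -0.028. With 1 library left out Tap1 ran from -0.020 to 0.23, Tap2 from -0.0030 to 0.12 and Psmb9 from -0.043 to 0.14. The log2 ratio of Psmb8 to Psmb5 ran from -0.046 (without KO 2) to 0.19 (without KO 1). The other 2 ratios stayed below 0 in every alternative, from -0.32 to -0.088 for Psmb9 to Psmb6 and from -0.26 to -0.072 for Psmb10 to Psmb7. Samples of the same replicate number did not deviate together (correlations of 0.082, -0.534 and -0.179), so the numbers gave no sign of pairing. Across numbers, WT 3 and KO 2, both of female type, correlated at 0.686. WT 2 with KO 1 gave 0.563 and WT 1 with KO 3 gave 0.287. The remaining pairs gave -0.536 (WT 3 with KO 1), -0.334 (WT 1 with KO 2) and -0.024 (WT 2 with KO 3). What these correlations reflect was not tested, and no fit used pairs across numbers. With the replicate block 2 genes were called and the median of the 10 was 0.093. Exact sign-flip permutation tests of 3 paired ratio differences cannot go below p = 0.25. Each member had at least 3166 reads in every library; whether more depth or more libraries would alter a call was not tested.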
